A study of Mus musculus with 9 samples.

Results

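Endothelial cells of the mouse forelimb bud were examined at E10.75 in 9 single-cell RNA-seq libraries, each made from the pair of forelimb buds of an embryo on the Swiss Albino background. The groups were wild-type embryos (Wt) and embryos homozygous for the deletions EC1CRM8Δ/Δ (E1C8Δ/Δ) or EC1CRM5Δ/Δ (E1C5Δ/Δ), with 3 libraries each. Both alleles remove part of the limb bud enhancers of Grem1, which encodes a secreted BMP antagonist, and leave mutant limbs with fewer digits. The deletions are in the germline, so every cell of a mutant embryo carried them, the endothelium included. Embryos of both sexes were used. A barcode was taken as endothelial when it had over 1000 genes, under 200000 UMIs and under 10% mitochondrial UMIs, when at least 4 of the 8 genes Cdh5, Emcn, Kdr, Cldn5, Pecam1, Cd34, Plvap and Flt1 had a UMI, and when their summed UMIs exceeded those of the mesenchymal gene Prrx1. By this rule 1320 of the 83167 barcodes passing the quality filters were endothelial (1.59%).

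Endothelial cells line the vessels that enter the limb bud together with the mesenchyme and form a plexus ahead of any cartilage. VEGF, made by surrounding cells, acts on them through Kdr, while angiopoietins act through Tek. Notch signals between neighbouring cells separate tip cells that lead a sprout from the stalk cells behind, and favour arterial over venous identity. ETS and SOX factors drive much of the endothelial programme, and BMP ligands act on endothelium through Acvrl1 and its co-receptor Eng.

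ETS factors bind a GGAA core, and the 250 bases before the start of endothelial genes were therefore read on both strands from the RefSeq promoters of build GRCm38.p6. At least 1 GGAA was present in 93.4% of all 32851 promoters, and 33.4% of them held 4 or more. Of the 16 pan-endothelial genes that the selection rule did not use, 10 were matched with 13 promoters, of which 61.5% held 4 or more, and of the 8 rule genes 5 were matched. The 3 promoters printed here are shown because they span few to many matches among genes that define the class. Capitals mark GGAA or its reverse complement TTCC, the only letters searched, and the matches do not overlap. Kdr (chr5:75978456-75978705, minus strand) had 4 matches, Tie1 (chr4:118489850-118490099, minus strand), a receptor of endothelial cells, had 7, and Cldn5 (chr16:18776597-18776846, plus strand), a tight-junction protein, had 0.
Kdr: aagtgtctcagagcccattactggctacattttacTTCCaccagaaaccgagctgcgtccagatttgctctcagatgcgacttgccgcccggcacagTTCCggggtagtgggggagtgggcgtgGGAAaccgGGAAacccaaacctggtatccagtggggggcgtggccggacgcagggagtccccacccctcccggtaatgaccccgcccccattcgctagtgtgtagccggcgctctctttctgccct
Tie1: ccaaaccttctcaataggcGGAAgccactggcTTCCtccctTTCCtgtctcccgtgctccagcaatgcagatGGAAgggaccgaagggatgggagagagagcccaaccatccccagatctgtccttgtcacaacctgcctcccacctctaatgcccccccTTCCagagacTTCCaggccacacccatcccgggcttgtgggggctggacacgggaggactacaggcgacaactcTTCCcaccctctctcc
Cldn5: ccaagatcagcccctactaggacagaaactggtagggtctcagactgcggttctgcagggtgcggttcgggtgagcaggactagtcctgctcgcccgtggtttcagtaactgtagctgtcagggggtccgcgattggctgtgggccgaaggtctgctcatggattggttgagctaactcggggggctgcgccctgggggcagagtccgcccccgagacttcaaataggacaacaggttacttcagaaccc
A match describes letters in the window and is not evidence of binding.

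The number of endothelial cells differed widely among libraries. Wt libraries 1, 2 and 3 held 138, 273 and 24 endothelial cells, E1C8Δ/Δ libraries 12, 259 and 254, and E1C5Δ/Δ libraries 91, 103 and 166. Their summed UMIs ranged from 202394 in E1C8Δ/Δ library 1 to 11659586 in Wt library 2, and the median per cell from 5499 to 37673 in E1C8Δ/Δ library 1 and E1C5Δ/Δ library 3. A gene without a UMI could thus still be at up to 14.8 CPM (UMIs scaled to a common total of the class, here 3 UMIs) in E1C8Δ/Δ library 1, against up to 0.257 CPM in Wt library 2, and all such limits cover counting error only. That library also had the lowest correlations of log CPM with the others (0.824 to 0.854), whereas the other 8 libraries correlated between 0.922 and 0.987. No endothelial barcode was shared between libraries, while 828 passing barcodes of any type were shared over the 36 pairs of libraries.

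**Figure D1:**
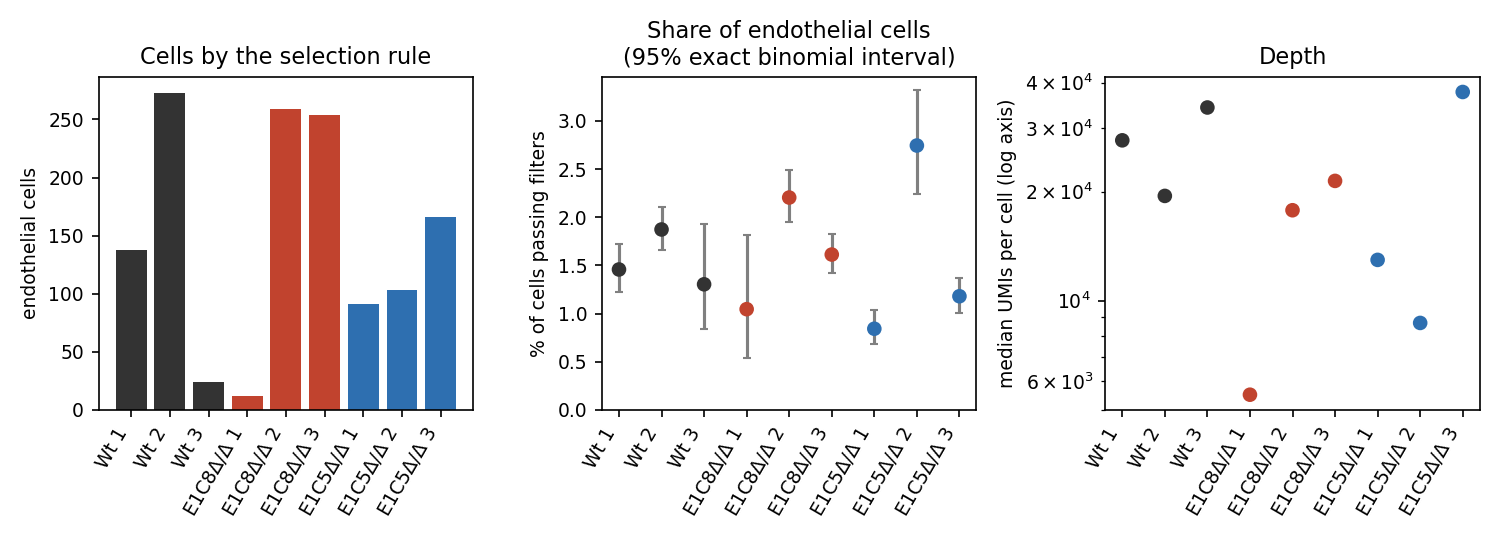
Number of endothelial cells, their share among cells passing the filters with its 95% exact binomial interval, and the median UMIs per endothelial cell (log axis) in each of the 9 libraries; black, red and blue mark Wt, E1C8Δ/Δ and E1C5Δ/Δ. Shares ran from 0.842% to 2.74%, and both ends belong to E1C5Δ/Δ libraries.

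The share of endothelial cells did not separate the genotypes. It was 1.46%, 1.87% and 1.30% in Wt, 1.05%, 2.20% and 1.61% in E1C8Δ/Δ, and 0.842%, 2.74% and 1.18% in E1C5Δ/Δ libraries. The means were 1.54% ± 0.294, 1.62% ± 0.580 and 1.59% ± 1.02 (SD, n = 3), and the 3 ranges overlapped. Over both mutants the mean exceeded Wt by 0.0601 percentage points (two-sided exact permutation test, p = 0.929, smallest possible 0.0119). For E1C8Δ/Δ and E1C5Δ/Δ alone the exact permutation p was 0.9 and 1.0, in a design of 3 against 3 that cannot go below 0.1.

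All 8 rule genes had a UMI in 827 cells (62.7%), from 41.7% in E1C8Δ/Δ library 1 to 78.9% in E1C5Δ/Δ library 3, and 135 cells had exactly 4. These 135 cells at the edge had a median of 3841 UMIs, 6 UMIs of rule genes and 1 of Prrx1, and the 194 cells just outside, with 3 rule genes, had medians of 4124, 4 and 0. The genes that chose the cells were accordingly high. Cdh5, the VE-cadherin of endothelial junctions, had 671, 485 and 538 CPM in Wt, 455, 514 and 379.9 in E1C8Δ/Δ and 547, 501 and 635 in E1C5Δ/Δ libraries, against a median of 0.627 CPM in all other cells. Kdr had 622, 384 and 409, then 415, 406 and 350.5, then 451, 463 and 596 CPM, so that the range of Wt overlapped with that of each mutant. These levels in endothelial over other cells follow from the rule and were not tested.

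RNA of other cell types was present in the selected cells. At least 3 of 8 mesenchymal markers had a UMI in 692 cells (52.4%) and at least 3 of 9 erythroid markers in 1194 cells (90.5%). The 8 mesenchymal markers summed to 116 to 563 CPM in endothelial cells, against a median of 1798 CPM in all other cells and 139 CPM (77.6 to 322) in erythroid cells, which do not express this programme. Prrx1 is among these markers and was limited by the selection rule, so the gap to all other cells follows in part from that rule. Globin reached over 5% of UMIs in 21 cells, and Ptprc, the pan-leukocyte gene, had a UMI in 6. Markers of macrophages (5 cells with at least 3), pericytes (15), muscle precursors (32), epithelium (26), haemogenic endothelium (22), megakaryocytes (27) and neural crest (1) were rare. The part of this RNA in the results below was not tested, and 610 cells remained when those with at least 3 markers of mesenchyme, macrophages, muscle, epithelium or megakaryocytes were left out.

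Genes beyond the rule followed the endothelial pattern. Of 9612 genes with a mean of at least 5 CPM, 9.35% were at least 2-fold higher in endothelial than in all other cells in each of the 8 libraries with at least 20 endothelial cells, and 2.58% were as much lower, with a median log2 ratio of -0.08 over all of them. All 16 pan-endothelial genes were higher, with a median log2 ratio of 6.26. Icam2, a cell adhesion molecule of endothelium, led the ranking of genes outside the rule with 231, 219 and 292 CPM in Wt, 311, 210.4 and 174 in E1C8Δ/Δ and 284, 245 and 179.7 in E1C5Δ/Δ libraries, and the genotypes overlapped. It was followed by Cd93, Esam, Kcne3, S100a16, Aplnr, Col15a1, Gja4, Ecscr and Plxnd1. The next ones were Tmem255a, Cavin3, Sox18, Gimap6, Gimap4, Adgrf5, Rasip1, Sparc, Tie1 and Rasgrp3. Because the cells were chosen by endothelial genes, these ratios are descriptions without a test.

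**Figure D2:**
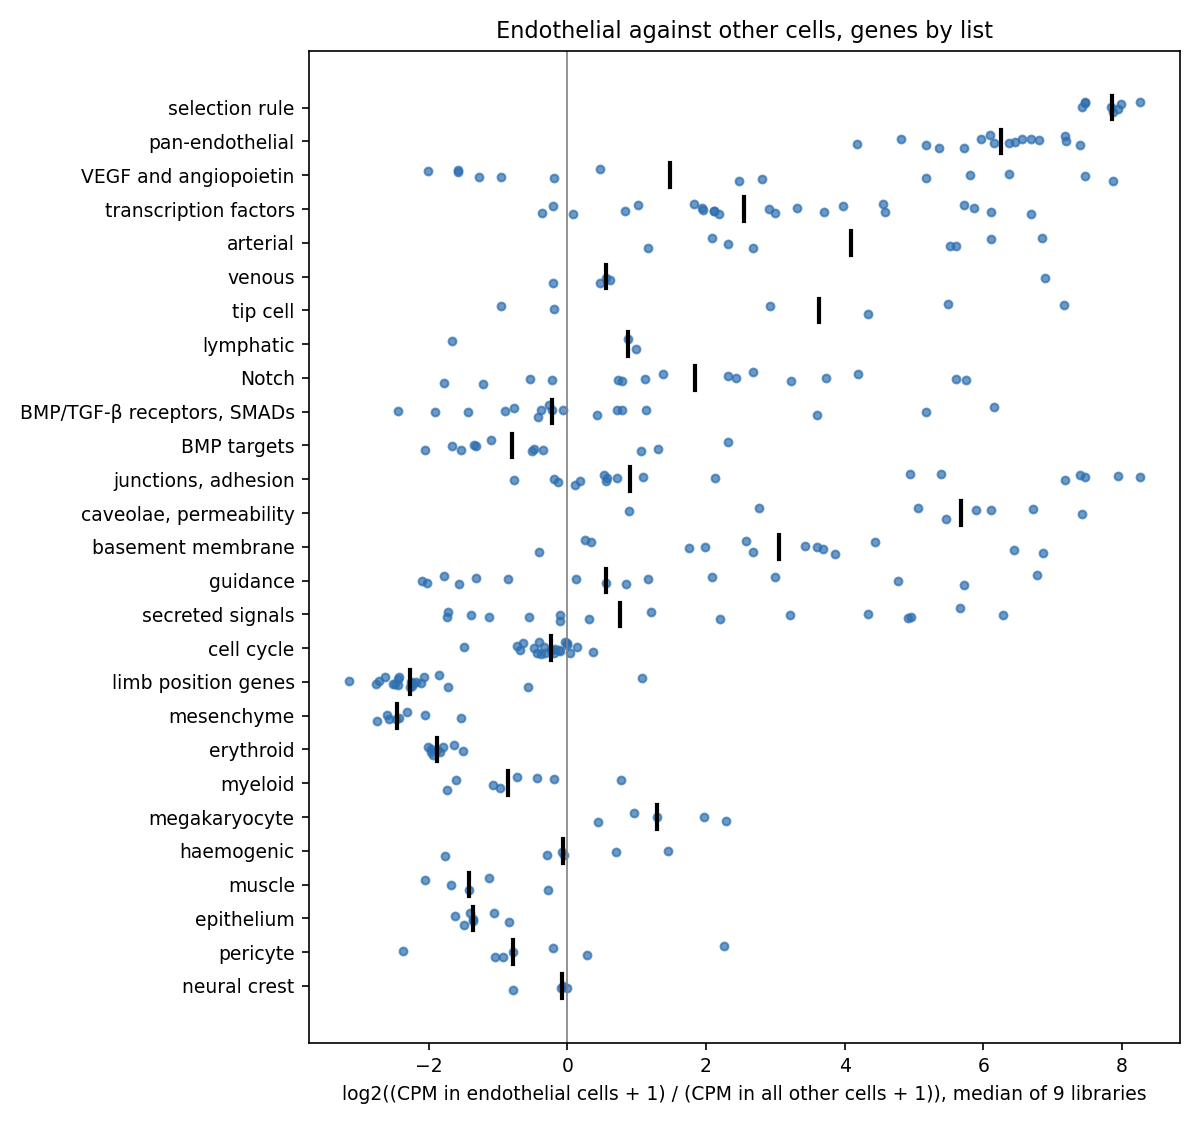
Each point is a gene placed by its log2 ratio of CPM + 1 in endothelial over all other cells (median of 9 libraries), grouped by list, with the median of each list as a black bar. Pan-endothelial genes sit at a median of 6.26, and mesenchymal markers at -2.45. The mesenchymal list includes Prrx1, which the selection rule limited.

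Most receptors of the vascular ligands were high, whereas most ligands were not. Of 14 VEGF and angiopoietin genes, 10 had at least 5 CPM, and 7 of these were higher and none lower, among them Kdr and Flt1, which the selection rule used. The receptor Nrp2 was neither higher nor lower, as were the ligands Vegfa and Vegfb. Flt4, the receptor for VEGF-C, had a log2 ratio of 5.81, Tek 5.17 and the VEGF co-receptor Nrp1 2.80. Among ligands, Vegfc was higher with 51.1 CPM (23.1 to 93.9) against 7.57, while Vegfa had 7.39 CPM (4.23 to 13.4) against 23.8 in other cells and Vegfb 34.2 against 81.1. Angpt1, the agonist of Tek, had a median of 0.946 CPM, and Angpt2 2.54 CPM against 3.13. Of the ligands listed, Vegfc was the one that was higher in endothelial cells.

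Transcription factors of the lineage were represented by 20 of 22 genes with at least 5 CPM, of which 14 were higher and none lower. Sox17 had 82.7 CPM (62.4 to 188), Sox7 64.5 CPM and Epas1, the hypoxia-inducible factor 2α, 74.1 CPM, all against under 1 CPM in other cells. Mef2c had 210.0 CPM against 8.59, Erg 51.0 against 3.01 and Hhex 46.8 against 1.02. Etv2, an early inducer of the lineage, had 0 to 2.06 CPM against a median of 2.22 CPM in other cells. Tal1 and Lyl1, which blood cells also use, had 21.0 and 14.8 CPM against 91.6 and 33.0 in erythroid cells. Klf2, a flow-responsive factor, had 216 CPM (83.2 to 304), whereas Nr2f2, a venous factor, had 75.8 CPM against 85.4 in other cells.

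Notch genes split by receptor. Of 13 members with at least 5 CPM, 8 were higher and 1 lower. Notch1 had 129.8 CPM (109 to 179.9) against 9.44 and Notch4 40.6 against 3.70, while Notch2 and Notch3 had 7.82 and 13.2 CPM against 29.3 and 30.5. The ligand Dll4 had 52.9 CPM (39.5 to 63.4) against 0.109, the modifier Mfng 69.0 against 0.334 and the feedback gene Nrarp 68.8 against 2.80. Jag1, another ligand, had 8.80 CPM against 5.74.

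The BMP and TGF-β receptors likewise differed by type. Acvrl1, the endothelial type I receptor, had 57.1 CPM (45.3 to 84.0) against 0.625, Eng 157 CPM against 1.14 and Tgfbr2 69.2 against 4.38. Bmpr1a, another type I receptor, had 11.6 CPM against 73.1 and was the single member of 15 that was lower. Of 9 BMP target and feedback genes with at least 5 CPM, 1 was higher and 2 (Id2 and Msx2) were lower. The higher one was Hey1, a shared target of BMP and Notch, with 59.4 CPM against 12.6. Id1 had 119 CPM against 247 and Id3 482 CPM against 222.

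Most basement membrane and caveolar genes were higher in endothelial cells, as were some junction genes. Of 12 basement membrane genes 11 were higher, among them Sparc with 1015 CPM against 9.95, Col4a1 with 869 against 85.0 and Hspg2 (perlecan) with 224 against 8.97. The exception was Fn1, with 134 CPM against 113. Of 8 caveolar and permeability genes 7 were higher, the rule gene Plvap included, such as Cav1 with 122 CPM against 0.773. Junction genes included 8 higher of 16, of which Cdh5, Cldn5 and Pecam1 were rule genes, while the broadly used Ctnnb1 (433 CPM against 290.4) and Cdh2 (46.8 against 49.1) were not. Of the guidance genes 5 of 12 were higher, led by Plxnd1 with 402 CPM against 2.83, and Efnb1 and Slit3 were lower. Of 14 secreted signals 6 were higher, 2 (Cxcl12 and Rspo3) lower and 6 neither. Among the higher ones Pdgfb, which recruits pericytes, had 64.8 CPM against 0.291, Kitl 132 against 3.07 and Igfbp3 439.7 against 5.19.

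Genes of limb position and proliferation did not follow the endothelial pattern. Of 16 position genes of limb mesenchyme 13 were lower, as for Tbx5 with 15.1 CPM against 98.7 and Hoxd11 with 19.1 against 181. Hoxb5 was the 1 member with a positive median ratio, with 17.3 CPM (14.7 to 25.5) against 8.48. Of 22 cell-cycle genes none was 2-fold higher and 1 lower, the G1/S cyclin Ccne1 with 32.9 CPM against 107. Mki67, a gene of dividing cells, had 209.8 CPM (149 to 252) against 243. Of the lymphatic genes, Lyve1 and Pdpn had at most 2.54 and 3.87 CPM, and Prox1 had 25.6 CPM in Wt library 2 and at most 5.69 CPM in every other library. Megakaryocyte genes varied most, as Pf4 had 806, 29.5 and 1.89 CPM in Wt, 4.94, 143 and 156 in E1C8Δ/Δ and 1761, 442 and 116 in E1C5Δ/Δ libraries.

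To describe variation among the cells, 1074 cells with at least 5000 UMIs were thinned to 5000 UMIs each and marked as arterial (at least 3 of 8 genes with a UMI), venous (3 of 5), tip (2 of 6) or lymphatic (2 of 3). These classes are ranges of marker detection rather than types. Of the 1074 cells 334 were arterial, 169 venous and 245 tip-marked, while 28 cells were marked as both arterial and venous, 79 as arterial and tip, and 460 carried none of these marks. Without thinning the arterial share was 46.2% to 77.7%, with the highest value in E1C5Δ/Δ library 3, which also had the highest median of UMIs per cell. The arterial share was 36.0%, 30.9% and 38.1% in Wt, 33.2% and 27.5% in E1C8Δ/Δ libraries 2 and 3, and 23.6%, 28.6% and 32.1% in E1C5Δ/Δ, and library 1 of E1C8Δ/Δ was left out with 8 cells. Across the same libraries the venous share ran from 9.52% to 18.4% and the tip share from 8.33% to 33.3%. No thinned cell was marked as lymphatic, which allows up to 0.279% of cells with these marks at this depth. Without thinning, lymphatic-marked cells were found in 6 of 9 libraries and made up at most 2.17% (Wt library 1), and with 1 marker needed at 5000 UMIs at most 5.38% (Wt library 2). Mutant means differed from Wt by -6.01 percentage points for arterial, 0.684 for venous and -6.92 for tip-marked cells. None of these passed a two-sided exact permutation test (p = 0.107, 0.786 and 0.321, adjusted over the 4 classes 0.429 for arterial and 0.643 for tip, smallest possible 0.0179), and the ranges of the groups overlapped. Without cells of other lineages, which also left out Wt library 3 for its few cells, the arterial difference was -0.331 (-4.47 without that library alone), and with 1 marker more the tip difference was -0.338.

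Arterial-marked and venous-marked cells were compared in the 6 libraries with at least 10 of each, leaving out cells with both marks. Of the 5 venous marks, Aplnr was the 1 that was at least 2-fold higher in endothelial than in other cells in every library, whereas Nr2f2, Ephb4, Nrp2 and Dab2 were not (median log2 ratio of the list 0.56), so the venous mark rests in part on genes that other cells also express. Of 4639 genes with a mean of at least 30 CPM that were not arterial or venous marks and not on X or Y, 601 were higher and 608 lower in the arterial-marked cells of every library, which is a description because the marks were read in the same cells. Some genes named below, such as Apln and Smad6, lie outside that count. The tip marks Cxcr4 and Apln went in opposite directions. Cxcr4, a chemokine receptor, had 76.2, 34.9, 70.5, 59.6, 46.5 and 86.1 CPM in arterial-marked and 0.719, 2.09, 0, 0, 11.2 and 8.31 CPM in venous-marked cells of Wt libraries 1 and 2, E1C8Δ/Δ libraries 2 and 3 and E1C5Δ/Δ libraries 1 and 3. The ranges did not overlap, and the counts at 0 allow up to 3 UMIs. Vegfc had a median of 125 CPM against 21.6, Apoe 348 against 47.8, the cell-cycle inhibitor Cdkn1c 1157 against 303 and Sox7 144 against 36.1.

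The difference extended to signalling genes. Notch1 had 219.8 CPM in arterial-marked against 127 in venous-marked cells, Nrp1 355 against 145, Igfbp3 730.3 against 266 and Cav1 198 against 63.3, each higher in 6 of 6 libraries. The BMP feedback genes Smad6 (18.4 against 3.69 CPM) and Smad7 (87.6 against 43.9) and the target Id1 (156 against 77.0) were also higher in all 6. On the venous side, Flrt2, a guidance ligand, had 16.7 CPM against 80.2, Tek 41.4 against 81.7 and Apln 23.0 against 45.8. Ccnd1 (271 against 429.8 CPM) and Top2a (327 against 441), which mark cycling cells, were lower in arterial-marked cells of all 6 libraries. Mesenchymal RNA also differed, as Prrx1 had 60.2 against 81.3 CPM and was lower in 5 of 6 libraries, and its part in the values was not tested. Prrx1 was limited by the selection rule in all these cells.

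**Figure D3:**
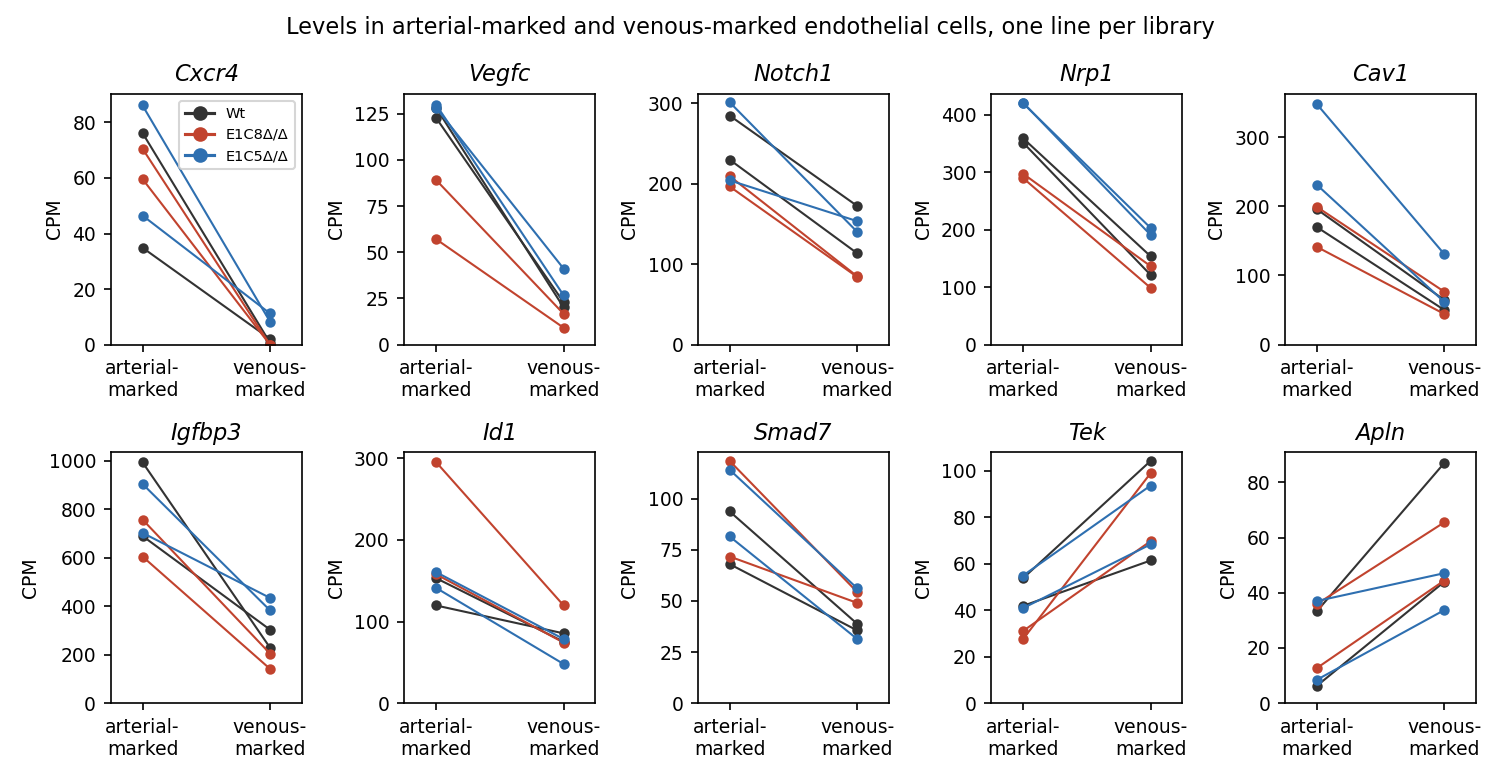
CPM of 10 genes in arterial-marked and venous-marked endothelial cells, with a line for each of the 6 libraries coloured by genotype. All lines fall from arterial to venous for Cxcr4, Vegfc, Notch1, Nrp1, Cav1, Igfbp3, Id1 and Smad7, and all rise for Tek and Apln.

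Tip-marked cells were compared with the remaining cells in the 5 libraries with at least 10 of both, where 917 of 4619 genes were higher and 436 lower in every library. Cdc42ep3, an effector of the small GTPase Cdc42, had 118 CPM against 52.6, the integrin Itga1 108 against 48.4 and Pdgfb 72.7 against 50.8, each higher in 5 of 5 libraries. Kdr was too, with 539.7 CPM against 363, but it is a rule gene whose UMIs helped to choose the cells. Id1 had 72.0 CPM against 126 and the flow-responsive Klf4 12.7 against 28.4, both lower in all 5. RNA of other cell types moved with this mark, as Pf4 had 7.08 CPM against 196 and Prrx1 58.8 against 125, and its part in the differences was not tested.

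The mutations were first examined through Grem1, on chr2:113746164-113758646 (mm10). In mesenchymal cells of the same libraries Grem1 was 39.4, 27.6 and 28.7 CPM in Wt, 10.98, 11.5 and 13.1 in E1C8Δ/Δ and 16.6, 15.3 and 24.1 in E1C5Δ/Δ, so that Wt and mutants did not overlap. Its log2 fold change for the mean of both mutants against Wt was -1.08 ± 0.135 (SE, edgeR quasi-likelihood test with Benjamini-Hochberg adjustment, adjusted p = 0.00353). Endothelial cells had 3.16, 5.92 and 3.78 CPM in Wt, 0, 2.32 and 4.72 in E1C8Δ/Δ and 0.772, 3.87 and 2.79 in E1C5Δ/Δ, from 186 UMIs in all, and the groups overlapped. The value of 0 allows up to 14.8 CPM. The endothelial log2 fold change was -0.61 ± 0.396 (edgeR, adjusted p = 0.845). Erythroid cells, which do not make Grem1, had a median of 1.32 CPM.

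In the endothelial transcriptome few genes passed the test. Calls and fold changes in both mutants refer throughout to the mean of the 2 mutant groups against Wt. Such a call need not hold in each mutant. Of 11383 genes, 2 rose and 3 fell in this contrast (edgeR quasi-likelihood, adjusted p under 0.05), which is 0.0439% of all genes tested (0.0176% and 0.0264% by direction), and 731 had an unadjusted p under 0.05. Against Wt, E1C8Δ/Δ had 13 higher and 12 lower genes (0.220%, or 0.114% and 0.105% by direction) and E1C5Δ/Δ 1 higher and 1 lower (0.0176%, or 0.00879% each). Between the mutants, 7 genes were higher and 4 lower in E1C8Δ/Δ (0.0966%, or 0.0615% and 0.0351%). In mesenchymal cells, summed from far more cells, 2.28% of 17057 genes were called for the mean of both mutants against Wt. All 3 Wt libraries and 2 of the 6 mutant libraries came from male embryos by their Y-linked genes and the other 4 from females. Over all cells, Xist had 31.6 CPM in Wt library 1 and 9.72 CPM in E1C8Δ/Δ library 3 beside these Y-linked genes, against at most 0.207 CPM in the other male and 615 to 923 CPM in the female libraries, so the assignment of these 2 libraries as male is less clear. As no Wt library was female, the sex term is estimated from the mutant libraries alone, and sex and genotype cannot be fully told apart. With embryo sex in the model no gene was called in both mutants by edgeR while 442 had an unadjusted p under 0.05. DESeq2 without that term called 11 genes. Cells with over 2500 genes, and cells without markers of another lineage, gave 2 genes each, where E1C8Δ/Δ library 1 and Wt library 3, respectively, fell under 10 cells and were also left out. Without Wt library 3 alone 3 genes were called. Leaving out E1C8Δ/Δ library 1 left 2 genes in both mutants and 13 in E1C8Δ/Δ, and without E1C8Δ/Δ library 2 the counts were 1 and 2.

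Lbp, which encodes the lipopolysaccharide-binding protein (chr2:158306493-158332852), fell in both mutants. Endothelial cells had 39.8, 46.4 and 49.2 CPM in Wt, 34.6, 14.8 and 17.2 in E1C8Δ/Δ and 17.8, 16.9 and 14.1 in E1C5Δ/Δ. All mutant libraries lay below all Wt libraries, a separation that 2.74% of the genes tested showed in one direction or the other. The log2 fold change was -1.44 ± 0.164 (edgeR, adjusted p = 0.00105), it was called whichever library was left out, and with embryo sex in the model it was -1.38 (adjusted p = 0.148). In mesenchymal cells Lbp fell as well, from 4.56, 5.96 and 8.94 CPM in Wt to at most 2.20 CPM in every mutant library (log2 fold change -2.42).

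Dph6, an enzyme of diphthamide synthesis, lies 758 kb from Grem1 at chr2:114516416-114654964 and was lower in both mutants. It had 44.8, 43.3 and 44.5 CPM in Wt, 24.7, 22.5 and 23.6 in E1C8Δ/Δ and 23.2, 29.9 and 29.1 in E1C5Δ/Δ endothelial cells, without overlap. The log2 fold change was -0.80 ± 0.127 (edgeR, adjusted p = 0.0223), and the gene was called in 8 of 19 alternative analyses and in the same direction in all 19. Mesenchymal cells showed the same direction, with 37.7, 40.4 and 34.7 CPM in Wt against 19.7 to 29.5 in the mutants (log2 fold change -0.61).

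Both genes that rose, D830030K20Rik and Gm11361, had overlapping groups, and no role is given for them here. D830030K20Rik had 0.166, 0.257 and 0 CPM in Wt, 0, 3.62 and 2.30 in E1C8Δ/Δ and 3.48, 3.87 and 4.50 in E1C5Δ/Δ (edgeR, adjusted p = 0.013). Gm11361 had 168 to 183 CPM in E1C8Δ/Δ, while it had 32.0 to 52.4 CPM in E1C5Δ/Δ against 20.8 to 43.3 in Wt. Lbp, Dph6, D830030K20Rik and Gm11361 were also called in the same direction in mesenchymal cells.

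**Figure D4:**
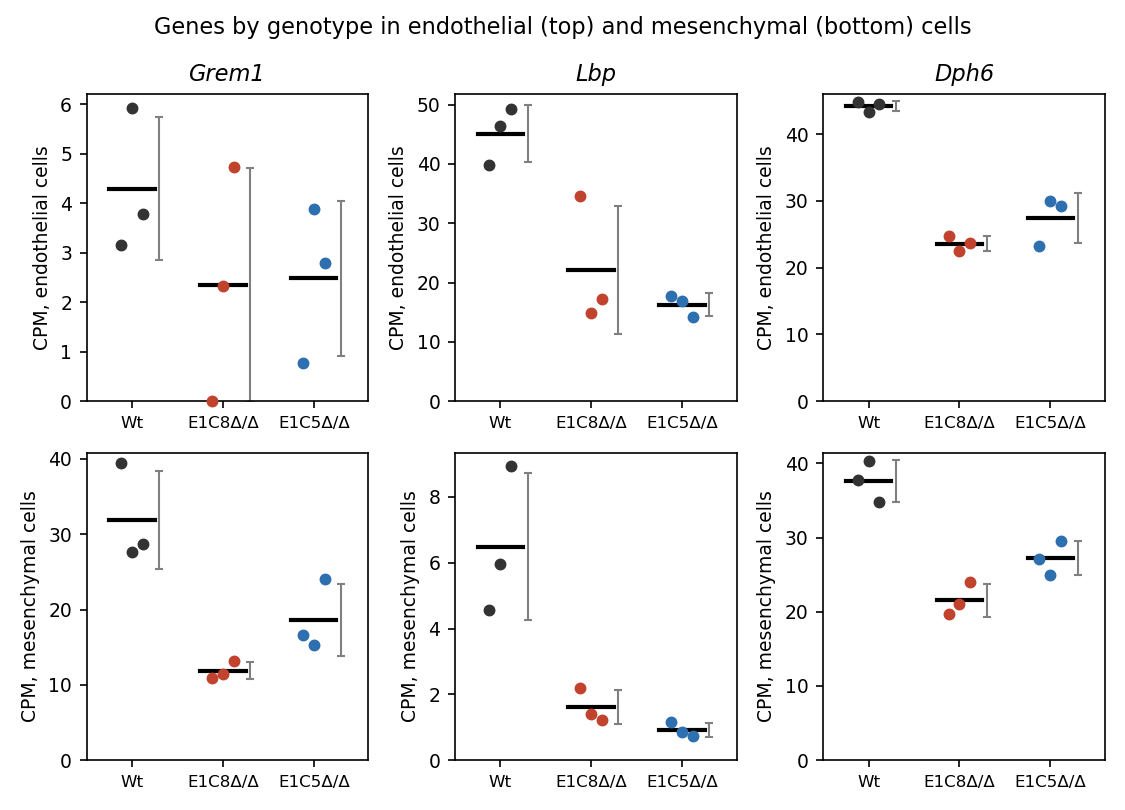
CPM of Grem1, Lbp and Dph6 in endothelial (top) and mesenchymal (bottom) cells of each library, with the mean as a black line and the SD as a grey bar (n = 3). Wt and mutant libraries are separate for Lbp and Dph6 in endothelial cells, and for Grem1 in mesenchymal cells but not in endothelial cells.

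The E1C8Δ/Δ calls were largely found in the mesenchyme as well. All 25 genes had the same direction in mesenchymal cells and 20 were called there, where 9.56% of genes were called. They included the host RNAs Snhg5, Snhg16 and Snhg17, which rose, and the ribosomal protein genes Rpl35 and Rps27, which fell. Rpl35 had 1617, 2255 and 2398 CPM in Wt, 578, 590.4 and 965 in E1C8Δ/Δ and 1828, 1704 and 1329 in E1C5Δ/Δ endothelial cells. Dst, a cytoskeletal linker, had 67.9, 50.1 and 50.1, then 14.8, 22.5 and 24.8, then 46.0, 57.8 and 52.2 CPM. In both cases the E1C8Δ/Δ libraries lay below all others. Arhgap31, Colec12, Ocel1, Peg10 and Tmem267 were called in endothelial cells and did not pass the test in mesenchymal cells, which is not a test of a difference between the classes.

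No listed gene was called by genotype with edgeR, whereas DESeq2 called a few in single mutants. The 27 lists, markers of other cell types included, held 271 distinct genes, of which 236 were tested, and edgeR's quasi-likelihood test called 0 in both mutants, in either mutant alone or between the mutants, although 31 had an unadjusted p under 0.05 in both mutants (9 higher, 22 lower), or 13.1% of them against 6.42% of all genes tested. The 236 include the 8 genes that chose the cells, and 228 lie outside that rule. DESeq2 called 0 in both mutants and 6 in E1C8Δ/Δ, namely Cd93, Col15a1, Hspg2, Id3, Tjp1 and Ube2c. Its calls were 1 in E1C5Δ/Δ (Pax3) and 1 between the mutants (Tjp1). On simulated counts for both mutants against Wt, edgeR recovered 82.5% of 200 genes with a log2 fold change of 1 in either direction. There were 12 false calls among 11383 genes. The simulated counts used the same library sizes and a spread set by expression level, not gene by gene. They held no sex difference and did not cover the single mutants or the test between mutants. With 200 changed genes beside few real calls, this share does not give the recovery in the real data.

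Of the BMP target and feedback genes 9 of 11 tested had a positive log2 fold change, with a median of 0.34 against -0.01 over all genes, and 4 had an unadjusted p under 0.05, as did 6.42% of all genes tested. Id3, an inhibitor of differentiation, had 434, 393 and 439.9 CPM in Wt, 1043, 608 and 515 in E1C8Δ/Δ and 482, 519 and 469.9 in E1C5Δ/Δ. Id1 had 107, 113 and 82.3, then 222, 196 and 122, then 120.1, 119 and 113 CPM. For Id3 the Wt libraries lay below all mutants, and for Id1 Wt library 2 overlapped with E1C5Δ/Δ library 3, and neither was called (edgeR, adjusted p = 0.647 and 0.635). The summed CPM of the list was 827 to 923 in Wt, 1051 to 1650 in E1C8Δ/Δ and 898 to 959 in E1C5Δ/Δ, with its highest value in the library of 12 cells. Mesenchymal cells express these genes too, with a median sum of 1132 CPM against 923 CPM in endothelial cells. The part of mesenchymal RNA in these values was not tested. In the interaction test with mesenchymal cells below, 0 genes of this list passed.

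Basement membrane genes leaned the other way. Of 13 tested, 12 had a negative log2 fold change, against 52.7% of all genes, the median was -0.24 and 6 had an unadjusted p under 0.05, without a call by edgeR (6.42% of all genes had such a p). The summed CPM of the list overlapped widely, with 3526 to 4772 in Wt, 2991 to 4679 in E1C8Δ/Δ and 3653 to 3818 in E1C5Δ/Δ. Hspg2 and Col15a1 were called by DESeq2 in E1C8Δ/Δ against Wt. Hspg2 had 274, 224 and 334 CPM in Wt, 237, 162 and 136 in E1C8Δ/Δ and 212, 214 and 229.7 in E1C5Δ/Δ (log2 fold change -0.53 ± 0.143, edgeR, adjusted p = 0.399). Col15a1 had 241, 188 and 279, then 59.3, 139 and 131, then 153, 211 and 174 CPM (-0.64 ± 0.170, adjusted p = 0.409). Both overlapped between Wt and the mutants. Several other endothelial lists leaned the same way, with negative values in 13 of 16 junction, 12 of 15 Notch and 11 of 14 guidance genes. So did 9 of 12 VEGF and angiopoietin, 15 of 21 transcription factor, 11 of 16 pan-endothelial and 4 of 5 venous genes. Other lists lay nearer to the 52.7% of all genes. Among these, 4 of 8 rule, 6 of 14 secreted, 9 of 16 BMP and TGF-β receptor, 3 of 5 tip and 5 of 8 caveolar genes were negative. The lists share members, and the junction, caveolar and VEGF lists hold rule genes, so the counts are not independent. Arterial genes had 7 of 8 negative values with a median of -0.18, cell-cycle genes 18 of 22 positive values with a median of 0.07, and neither list held a call by edgeR. DESeq2 called the cell-cycle gene Ube2c in E1C8Δ/Δ.

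Whether the mean effect of the 2 mutants differed between the cell classes was tested as an interaction with the mesenchymal cells of the same libraries. It passed for 9 of 13738 genes (0.0655%, or 0.0437% and 0.0218% by direction), 6 with the endothelial effect above and 3 with it below the mesenchymal one. Mmrn2, an extracellular matrix protein of endothelium (chr14:34375465-34404287), had 108, 89.8 and 106 CPM in Wt, 79.1, 88.0 and 74.0 in E1C8Δ/Δ and 101, 105 and 125 in E1C5Δ/Δ endothelial cells. In mesenchymal cells it had 4.14, 3.93 and 6.47 CPM in Wt, 3.99, 3.57 and 3.50 in E1C8Δ/Δ and 0.656, 0.657 and 0.704 in E1C5Δ/Δ. The E1C5Δ/Δ libraries were the low ones in mesenchymal cells, and E1C8Δ/Δ endothelial levels lay below all others. The interaction was 1.43 ± 0.130 as the mean of both mutants (edgeR, adjusted p = 7.46e-07), but 0.01 in the E1C8Δ/Δ and 2.85 in the E1C5Δ/Δ term. It was called in all 18 alternatives, and with a term for embryo sex in each cell class it was 1.30 (edgeR, adjusted p = 0.00143), the 1 gene that passed there.

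Tspan18, a tetraspanin found in endothelium (chr2:93201760-93334505), had an interaction in the same direction in both mutants. Endothelial levels were 155, 170.2 and 144 CPM in Wt, 178, 118 and 99.9 in E1C8Δ/Δ and 158, 172 and 158 in E1C5Δ/Δ, and these overlapped. In mesenchymal cells it had 3.24, 5.46 and 3.46 CPM in Wt and 1.13 to 2.02 CPM in all 6 mutant libraries. Its interaction was 1.11 ± 0.141 (edgeR, adjusted p = 0.00293) and was called in 17 of 18 alternatives, the exception being the term for embryo sex (0.96, adjusted p = 0.0943). For both genes the mesenchymal level was a small fraction of the endothelial one in the same library.

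The remaining interaction genes were called in 4 to 12 of 18 alternatives, and none of them with the term for embryo sex (edgeR), where 577 genes had an unadjusted p under 0.05. Enpp2, which encodes autotaxin, had 5.66 to 16.1 CPM in Wt and 0 to 8.24 CPM in mutant endothelial cells, a lower but overlapping range. In mesenchymal cells it fell from 10.5 to 13.1 CPM to 3.02 to 5.55 CPM, without overlap. DESeq2 did not call its interaction (adjusted p = 0.825), which was 1.44 by edgeR (adjusted p = 0.0268). Jag1 was the 1 listed gene called, with 9.82, 6.95 and 4.73 CPM in Wt and 8.11 to 19.8 CPM in mutant endothelial cells against 7.94 to 11.5 and 3.57 to 7.55 CPM in mesenchymal cells (1.15, adjusted p = 0.0486). Tfpi, an inhibitor of coagulation, rose in the mesenchymal cells from 2.91 to 4.39 CPM to 5.11 to 6.90 CPM while endothelial levels overlapped between 91.3 and 133 CPM (-0.68, adjusted p = 0.0268). Lbp fell less in endothelial than in mesenchymal cells on the log2 scale (0.98, adjusted p = 0.0365). The summed mesenchymal markers in endothelial cells were 225 to 501 CPM in Wt, 119 to 563 in E1C8Δ/Δ and 116 to 338 in E1C5Δ/Δ, and their part in these values was not tested.

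**Figure D5:**
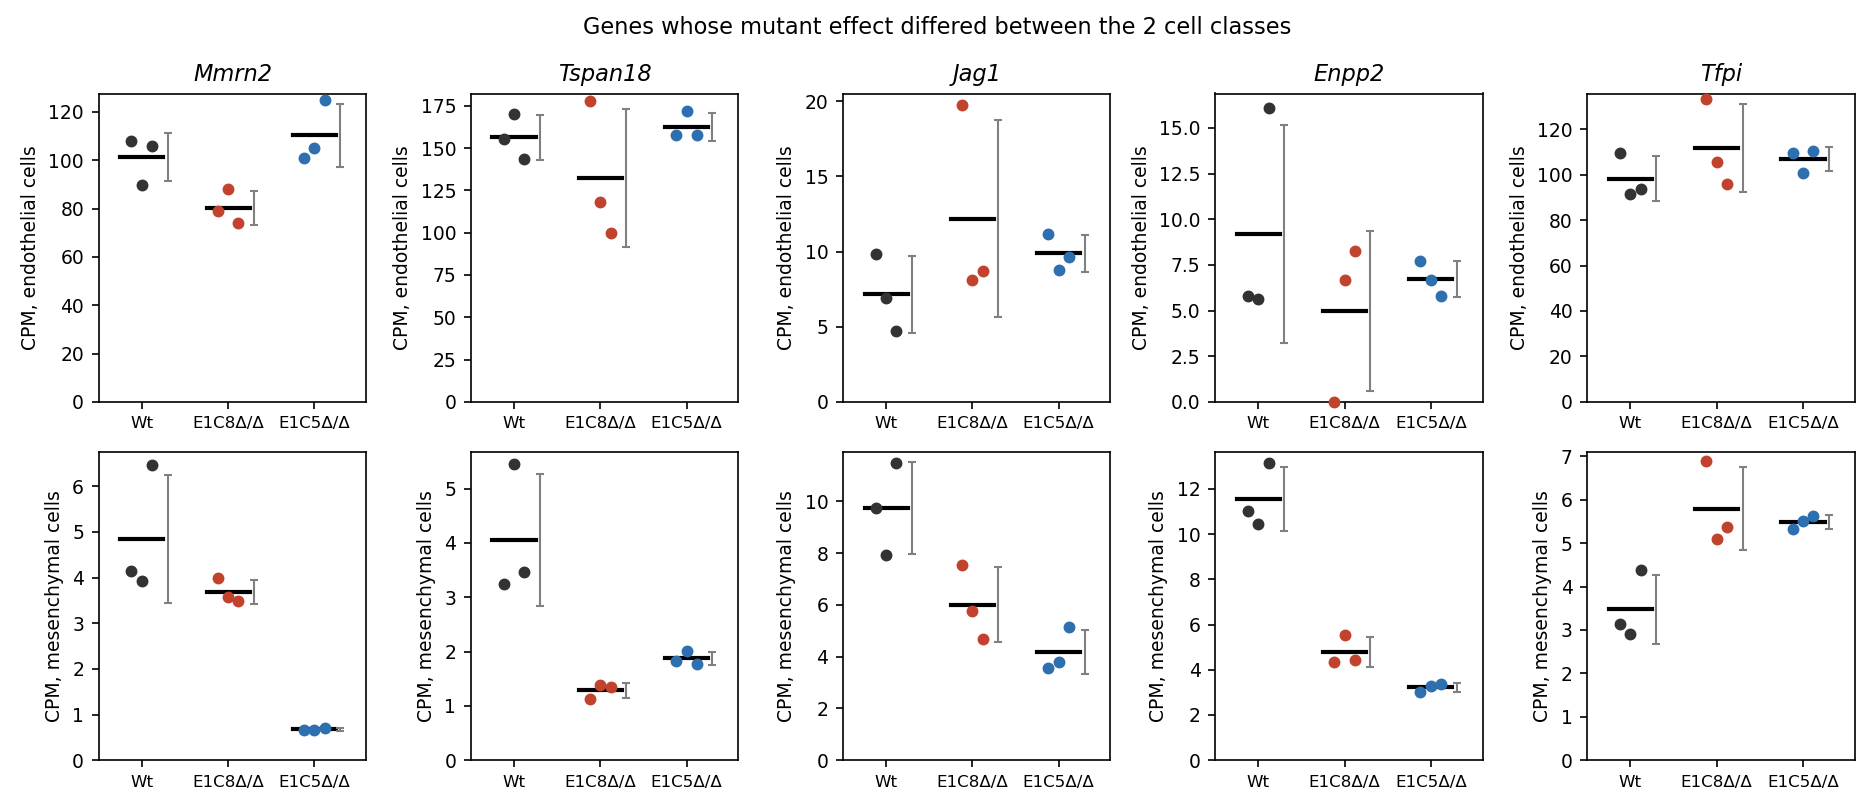
CPM of Mmrn2, Tspan18, Jag1, Enpp2 and Tfpi in endothelial (top) and mesenchymal (bottom) cells of each library, with the mean as a black line and the SD as a grey bar (n = 3). In mesenchymal cells Wt and mutants are separate for the last 4 genes and E1C5Δ/Δ stands apart for Mmrn2, while in endothelial cells the range of the Wt libraries overlaps that of the 6 mutant libraries for all 5 genes.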

How the data were processed

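Libraries were made per embryo with the 10x Genomics 3′ kit v3.1. The values analysed are raw UMI counts per gene and barcode as deposited, in a matrix per library; per the labels' processing notes the authors used Cell Ranger (6.0.1), Seurat (4.3.0.1) and the mm10 build, and the study then kept cells with over 2500 genes and removed doublets. Here no doublet caller was run, and cells with at least 3 markers of mesenchyme, macrophages, muscle, epithelium or megakaryocytes were left out as an alternative. The study's own marker test over single cells was not used, because cells are not replicates.

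UMIs were summed over endothelial cells, over mesenchymal cells (at least 2 UMIs of Prrx1, at most 1 rule gene, globin under 5%, no Ptprc) and over erythroid cells (globin at least 20%, at most 1 rule gene) in each library. Genes on X and Y (1809 features) were left out of the genotype tests, as in the study, and so were 4 features without a gene identifier. The gene counts in marked cells also left out X and Y. edgeR (4.0.16) was run with TMM, filterByExpr and the quasi-likelihood test on all 9 libraries, DESeq2 (1.42.0) was an alternative, p-values were adjusted by Benjamini-Hochberg over all genes tested, and 0.05 was the threshold. A SE is the fold change divided by the square root of F. The fit was tested on simulated data. Summed endothelial UMIs, 202394 to 11659586 per library, set the precision, and CPM in the text refers to all UMIs of a class.

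The labels describe a library per pair of forelimb buds and give no litter, so p-values measure the spread between these samples. Replicate numbers did not pair the samples (correlations of same-numbered deviations -0.0935 to 0.146). Sex was inferred from the sum of Y-linked genes beside Xist in each library. Genes named by rule were those of 27 lists, the 20 leading endothelial genes, Grem1, up to 10 genes a direction called with Wt and mutants apart, and up to 5 a direction for the interaction, apart or not. Other names, such as D830030K20Rik, Gm11361, the E1C8Δ/Δ calls and the unlisted genes of marked cells, were chosen after their values were seen. The cells' selection rule, the lists and the tests were chosen with earlier results of these data known. Gene positions are from GENCODE (mm10) and promoters from RefSeq (GRCm38.p6). Alternatives changed the cell selection, the filter, the normalization, the tool, the embryo sex term and the libraries. A called gene that the rule names is not reported here.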

Additional observations from a re-analysis of the deposited data

Results flagged for a closer look

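With 3 libraries in a group, no test for a single outlying library was made. The results below are differences between effects, each passing edgeR's quasi-likelihood test of the difference itself with an adjusted p under 0.05.

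The mean log2 effect of the 2 mutants differed between endothelial and mesenchymal cells for 9 genes, of which Mmrn2 also passed with embryo sex in the model. The mean effect was higher in endothelial cells for Mmrn2 (1.43), Tspan18 (1.11), Enpp2 (1.44), Jag1 (1.15), Lbp (0.98) and Cbfa2t3 (0.86), and lower for C1qtnf2 (-3.79), Tfpi (-0.68) and Cotl1 (-0.44). Of these 9, Tspan18 was the 1 that passed in the term of each mutant (edgeR, adjusted p = 0.0342 in E1C8Δ/Δ and 0.0082 in E1C5Δ/Δ). For Mmrn2 the terms were 0.01 in E1C8Δ/Δ and 2.85 in E1C5Δ/Δ. Endothelial C1qtnf2 rested on 63 UMIs.

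Within endothelial cells the log2 effects of the 2 alleles differed for 11 genes. The E1C8Δ/Δ effect was higher for Gm11361 (1.97), Colec12 (1.38), Phpt1 (1.38), Snhg16 (1.34), Thg1l (1.24), Klhdc4 (1.06) and Snhg17 (1.01). It was lower for Ocel1 (-1.85), Sept2 (-1.38), Slfn9 (-1.3) and Dst (-1.16). In mesenchymal cells of the same libraries 9 of these 11 differences were called in the same direction, where 1840 of 17057 genes were called in either direction.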

How the results depend on the processing

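Counts of called genes moved with most choices. For both mutants (5), E1C8Δ/Δ (25), E1C5Δ/Δ (2), E1C8Δ/Δ against E1C5Δ/Δ (11) and the interaction (9), the counts without a filter on low counts were 89, 224, 47, 246 and 77. Cells with over 2500 genes gave 2, 12 and 3 calls for both mutants, E1C8Δ/Δ and E1C8Δ/Δ against E1C5Δ/Δ, cells without markers of another lineage gave 2, 5 and 7 (these 2 settings also left out E1C8Δ/Δ library 1 and Wt library 3, respectively, for few cells), and DESeq2 gave 11, 56 and 19. Requiring 5 rule genes gave 19 between the mutants. With at least 20 cells per library, which leaves out E1C8Δ/Δ library 1, the same 3 counts were 2, 13 and 3 and the interaction had 14. Prrx1 at most 10% of rule UMIs, chosen after seeing the data, gave 15 for E1C8Δ/Δ, 2 between the mutants and 14 for the interaction. DESeq2 size factors gave 4 interaction calls, and the E1C8Δ/Δ term alone 3. Embryo sex by cell class and DESeq2, both added for the interaction after seeing the data, gave 1 and 5. Embryo sex in the model gave 0, 8 and 0 calls for both mutants, E1C8Δ/Δ and E1C5Δ/Δ. With 1 library left out, the 5 counts ran from 1 to 11, 2 to 33, 0 to 4, 1 to 66 and 2 to 14. The lowest values came without E1C8Δ/Δ library 2 (1, 2 and 1 for both mutants, E1C8Δ/Δ and between the mutants), Wt library 2 (0 for E1C5Δ/Δ) and E1C8Δ/Δ library 3 (2 for the interaction). High values came without E1C5Δ/Δ library 2 (11 for both mutants), E1C5Δ/Δ library 3 (9), and Wt libraries 1 and 2 (66 and 35 between the mutants). The cause was not tested, apart from the smaller sums and sample numbers that some alternatives bring by construction.

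The replicate numbers shared no label of litter or day and did not pair the samples. A replicate block gave 2, 9 and 41 calls for both mutants, E1C5Δ/Δ and E1C8Δ/Δ against E1C5Δ/Δ.

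The difference in endothelial share (0.0601 points) was -0.271 over 2500 genes, -0.0148 with 5 rule genes, -0.0679 over endothelial and mesenchymal cells only and 0.255 without cells of other lineages (exact permutation p = 0.262). With 1 library left out it ran from -0.168 to 0.224 (-0.0604, -0.0598 and -0.168 without Wt library 3, E1C8Δ/Δ library 2 and E1C5Δ/Δ library 2). The venous difference (0.684) was -11.6 without thinning, -2.21 without cells of other lineages and -2.05 to 2.39 with 1 library left out (-2.05 without Wt library 3). For the marked cells, the setting without cells of other lineages also left out Wt library 3, and that without thinning also added E1C8Δ/Δ library 1, so each of these values reflects both changes. Arterial and tip differences were negative in every alternative but ranged widely. With 1 library left out they ran from -8.04 to -4.47 and -9.73 to -3.46. The arterial difference was -0.331 without cells of other lineages and -1.67 with 1 marker more, and the tip difference was -0.338 with 1 marker more and -12.8 without thinning. Depth limits rare genes most in E1C8Δ/Δ library 1, with 12 cells.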

Other observations

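Some values belong to no comparison above. Kit, a receptor of haemogenic and other progenitors, was the 1 haemogenic gene with at least 5 CPM, at 24.3 CPM (16.6 to 34.6) against 7.44 CPM in other cells, while Runx1 had 1.63 CPM and Gfi1 a median of 0. Abcc9, listed as a pericyte gene, had 3.78 CPM (1.29 to 18.2) against 0.0324 in other cells, whereas Pdgfrb had 6.75 CPM against 40.0. Fcer1g, listed as a macrophage gene, had 7.15 CPM (4.73 to 32.1) in cells with a median of 0 CPM of Ptprc, Csf1r and C1qa. It was neither higher nor lower than in other cells. The 8 macrophage genes together had a median of 17.4 CPM in endothelial and 20.6 CPM in all other cells, so other members were present too.

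The positions of the called genes were looked at after their values were known. Chromosome 2, which holds Grem1, carried 8.14% of the 11383 genes of the genotype test and 2 of the 5 called in both mutants (Dph6 and Lbp). It carried 8.01% of the 13738 genes of the interaction test and 4 of the 9 called (Tspan18, Tfpi, Lbp and Jag1).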
